A study of Mus musculus with 8 samples.

Results

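Imprinted genes are expressed mainly from the copy inherited from 1 parent, and 10 of them were followed here in mouse pro-B cells with and without menin: Grb10, Igf2r, Gnas, Impact, Peg3, Plagl1, Snrpn, Mest, Peg10 and Dlk1. All probe sets that the platform annotation assigns to these symbols were taken, leaving aside the imprinted genes necdin (Ndn) and Cdkn1c. The array held all 10 genes, among 18193 genes with a probe set of their own, in 26 probe sets that carry 1 of these symbols alone. The menin-deficient group was 4 Rag1-cre;MenF/F mice and the control group 4 MenF/F mice, so that all 8 animals carried floxed Men1 and the menin-deficient ones also carried Cre under the name of Rag1, a gene active in early lymphocytes. They were 2 to 3 weeks old. RNA of Fraction B cells, sorted from bone marrow as B220+CD43+HSA+BP-1-, was amplified and hybridised to 1 Affymetrix whole-genome mouse expression array per mouse. No control carried Cre, so its own effects and those of losing menin cannot be told apart. By Xist and Eif2s3y, 2 menin-deficient mice and 1 control mouse were male.

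Imprinting rests on DNA methylation laid down differently in egg and sperm at control regions rich in CG dinucleotides, and kept through cell division afterwards. Many imprinted genes act in growth: Igf2r clears the growth factor IGF2, Grb10 restrains insulin and IGF receptor signalling, and Plagl1 and Peg3 encode zinc finger proteins that bind DNA. Several are active in fetal tissues and in stem cells and quiet in mature ones. Menin, the product of Men1, joins the histone methyltransferase MLL (Kmt2a), a protein with a domain that binds unmethylated CG dinucleotides. The arrays measured total RNA of each gene and did not tell the maternal from the paternal copy, so nothing here concerns allele use.

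Values are on a log2 scale and share a lowest value of 2.08, at which 36.1% to 36.7% of the probe sets of each array lay. A probe set was tested when it exceeded the 40th percentile of its own array (2.09 to 2.10) on at least 4 of 8 arrays. The fit over 26790 such probe sets called 3808 of them changed by limma at a Benjamini-Hochberg adjusted p under 0.05, of which 2503 rose and 1305 fell. Men1 itself was lower on its brightest probe set, with 7.85, 8.24, 8.495 and 8.03 in menin-deficient arrays against 9.59, 9.19, 9.58 and 9.81 in control arrays (log2 difference -1.39, SE 0.18, limma adjusted p = 0.00617). The place of this probe set relative to the floxed part of the gene was not analysed here. All 14 pro-B markers on the array were tested and none lay near the lowest value, and the summed level of these markers, as log2, was 18.7 to 18.9 in menin-deficient and 18.7 to 18.8 in control arrays. In the fit over genes 4 of the 14 were called (limma), beside 21.3% of all tested genes. Dntt (0.35), Vpreb3 (0.42) and Igll1 (0.38) were higher on their brightest probe sets and Rag1 (-0.28) was lower. Igll1 differed by -0.12 without _x_at and _s_at probe sets, and its call held under 5 of 20 alternatives. The Rag1 call held under 10 of 20. Only menin-deficient mice carried Cre under the name of Rag1, so for Rag1 an effect of Cre and one of losing menin cannot be told apart.

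Among the 10 genes, Grb10 stood out in menin-deficient cells at more than 2-fold over control, Gnas was slightly higher, Igf2r and Impact were expressed without a called change, and the probe sets assigned to Peg3, Plagl1, Mest, Peg10, Dlk1 or Snrpn alone lay at or close to the lowest value on most arrays. Snrpn together with Snurf was well expressed on the brightest of their joint probe sets, while the others lay at or near the lowest value. Of the 26 probe sets, 12 passed the filter, in 7 of the 10 genes, and 2 of those were called, both higher. In the whole fit 14.2% of all tested probe sets were called, 9.34% as higher and 4.87% as lower, so 2 of 12 is close to the background. The other 14 probe sets did not pass, and 12 of them stood at the lowest value of the table on all 8 arrays. No probe set of Snrpn alone, Peg10 or Dlk1 passed.

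**Figure D1:**
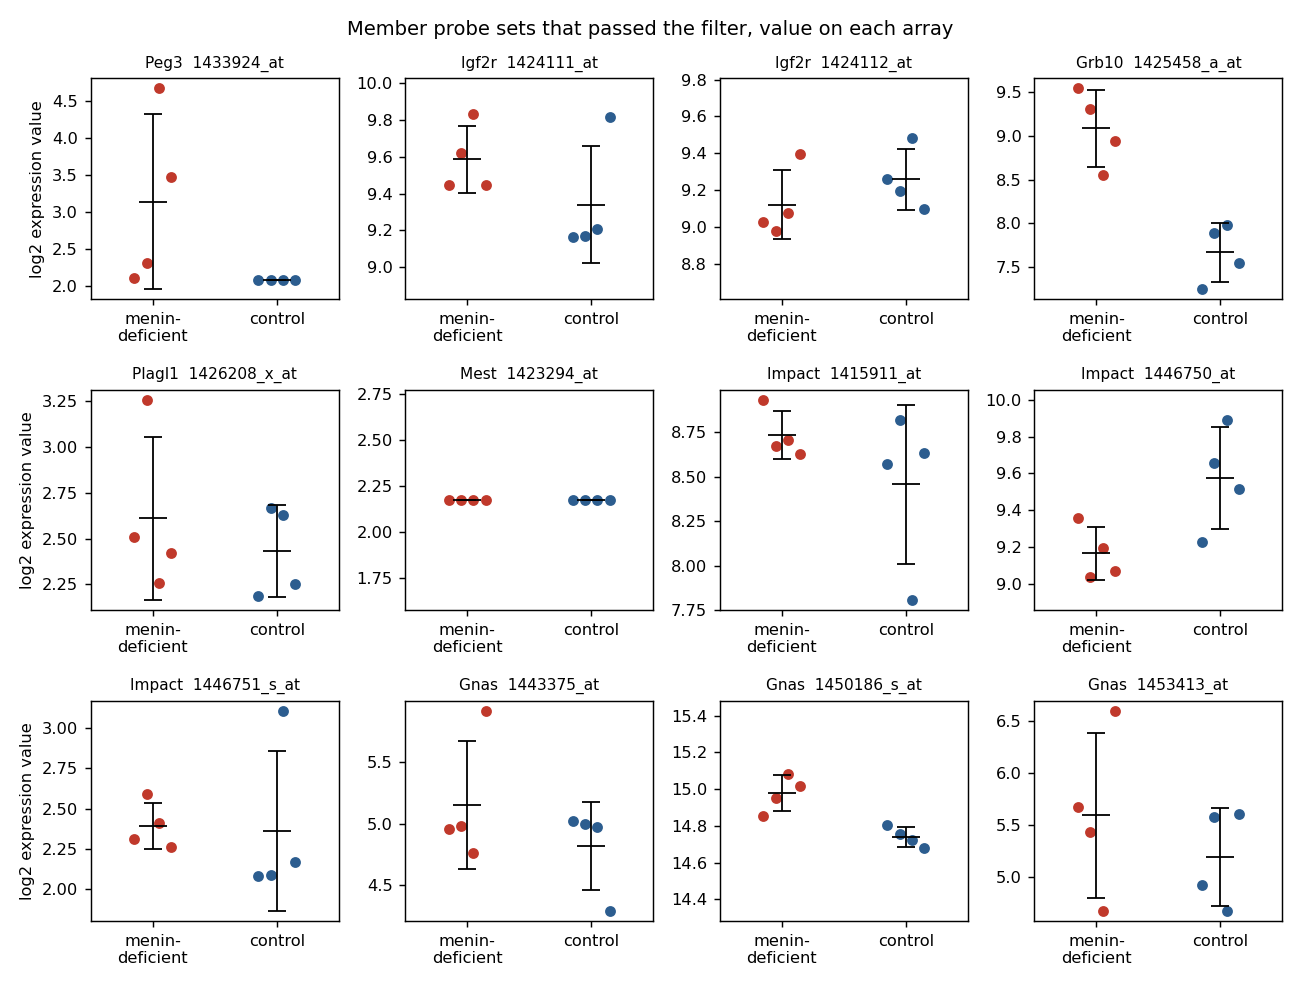
Log2 expression value (vertical axes, each with its own range) of the 12 member probe sets that passed the filter, with menin-deficient arrays in red on the left and control arrays in blue on the right of each panel. Points are arrays in order of replicate number, and bars are the mean ± SD of 4 arrays. The groups do not overlap for Grb10 1425458_a_at, Gnas 1450186_s_at and Peg3 1433924_at. Peg3 passed the filter only through the menin-deficient arrays, so its groups had to differ. Over all tested probe sets, 21.4% had groups that did not overlap.

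Grb10 encodes an adaptor protein that binds activated insulin and IGF receptors and dampens their signal. It is expressed from the maternal copy in most tissues. Its probe set 1425458_a_at had 9.54, 9.31, 8.55 and 8.94 in menin-deficient arrays, against 7.25, 7.89, 7.98 and 7.55 in control arrays. Every menin-deficient array lay above every control array. Over all tested probe sets, 21.4% had groups that did not overlap, in either direction. Grb10 averaged 9.09 ± 0.44 in menin-deficient cells and 7.67 ± 0.33 in control cells (log2, SD, n = 4 each). The difference was 1.42 (SE 0.25, 95% interval 0.82 to 2.02, limma adjusted p = 0.0155), which is 2.67-fold. The other probe sets of Grb10, 1425457_a_at and 1430164_a_at, stood at the lowest value on all 8 arrays, so the rise rests on 1 probe set. The call was lost without menin-deficient replicate 2 (difference 1.34, limma adjusted p = 0.0504) and in female mice alone (difference 1.18, limma adjusted p = 0.0992).

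Sex was uneven between the groups, and Grb10 was higher without menin in either sex. Among females it averaged 8.75 in menin-deficient and 7.57 in control mice. Among males it averaged 9.43 in menin-deficient mice and was 7.98 in the only control. With sex as a covariate Grb10 stayed past the threshold. In bulk RNA, fewer cells of a type and less RNA per cell cannot be told apart.

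Grb10 has 2 annotated start sites in the RefSeq promoter table (GRCm38.p6), and their windows are shown because Grb10 was the member that changed most among those called. Each window runs from 250 bases before to 50 bases after the start, on the minus strand, with every CG dinucleotide in capitals. The upstream one (chr11:12037371-12037670) holds 45 CG, a count that 1.93% of 32851 windows of that length reach, against a median of 7. The downstream one (chr11:12027922-12028221) holds 9, which 45.8% of windows reach. CG was counted by its letters, which read the same on both strands, and 94.6% of all windows hold at least 1. The count is a description, and the arrays did not tell which start was used.
Grb10 upstream start: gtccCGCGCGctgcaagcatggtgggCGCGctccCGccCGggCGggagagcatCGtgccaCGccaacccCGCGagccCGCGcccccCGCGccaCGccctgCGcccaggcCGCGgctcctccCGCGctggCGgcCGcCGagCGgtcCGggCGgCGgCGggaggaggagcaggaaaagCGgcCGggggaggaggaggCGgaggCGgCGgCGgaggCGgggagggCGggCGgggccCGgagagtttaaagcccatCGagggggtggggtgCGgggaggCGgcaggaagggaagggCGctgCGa
Grb10 downstream start: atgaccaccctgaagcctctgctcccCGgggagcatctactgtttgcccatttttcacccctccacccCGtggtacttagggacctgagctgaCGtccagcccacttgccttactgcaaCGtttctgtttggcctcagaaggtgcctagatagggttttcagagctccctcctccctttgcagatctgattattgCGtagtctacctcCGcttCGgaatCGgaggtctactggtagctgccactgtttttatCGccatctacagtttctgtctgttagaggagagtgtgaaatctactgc

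Gnas encodes the stimulatory G protein alpha subunit, which links hormone receptors to adenylyl cyclase, and its locus also gives rise to other imprinted transcripts. The bright probe set 1450186_s_at had 14.85, 14.95, 15.08 and 15.02 in menin-deficient arrays, against 14.80, 14.76, 14.72 and 14.68 in control arrays. The groups did not overlap, but their nearest arrays lay close together. Gnas averaged 14.98 ± 0.10 in menin-deficient and 14.74 ± 0.05 in control cells (log2, SD, n = 4 each), a difference of 0.24 (SE 0.06, limma adjusted p = 0.0391), or 1.18-fold. That call was fragile: it was kept under 3 of 18 alternatives and lost without each array except menin-deficient replicate 1. It rests on this _s_at probe set, and Gnas was not called by gene when _x_at and _s_at probe sets were left out. The median tested gene itself was 0.11 higher in menin-deficient arrays, and with arrays centred on that median the Gnas difference was 0.11 (limma adjusted p = 0.304).

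The dimmer Gnas probe sets varied more among arrays than between groups. Gnas 1443375_at had 4.95, 4.98, 4.76 and 5.92 in menin-deficient arrays, against 5.02, 4.995, 4.97 and 4.29 in control arrays (difference 0.33, 95% interval -0.35 to 1.02). Gnas 1453413_at had 5.68, 5.43, 4.67 and 6.60 in menin-deficient arrays, against 4.92, 5.58, 4.67 and 5.61 in control arrays (difference 0.40, 95% interval -0.61 to 1.41). In both, menin-deficient replicate 4 was the highest array and the groups overlapped. Without that array the difference was 0.08 for 1443375_at and 0.06 for 1453413_at. Without control replicate 4 the 1443375_at difference was 0.16, and for 1453413_at it was 0.71 without menin-deficient replicate 3 and 0.22 without control replicate 3. The remaining Gnas probe sets, 1421740_at and 1427789_s_at, reached at most 2.10. Of the 4 RefSeq start windows of Gnas, 1 with 40 CG was the richest and 1 with 16 CG the poorest.

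Igf2r encodes the cation-independent mannose 6-phosphate receptor, which carries enzymes to lysosomes and takes up IGF2. In the mouse it is expressed from the maternal copy. Both of its probe sets were well expressed and gave differences of opposite sign, neither past the threshold. Igf2r 1424111_at had 9.45, 9.62, 9.83 and 9.45 in menin-deficient arrays, against 9.16, 9.17, 9.21 and 9.82 in control arrays. Here control replicate 4 lay with the menin-deficient arrays, and the difference was 0.25 (95% interval -0.16 to 0.65, limma adjusted p = 0.382). Igf2r 1424112_at had 9.03, 8.98, 9.08 and 9.40 in menin-deficient arrays, against 9.26, 9.19, 9.48 and 9.10 in control arrays, with a difference of -0.14 (95% interval -0.42 to 0.14, limma adjusted p = 0.485). The gap between these probe sets did not differ detectably between the groups (two-sided exact permutation p = 0.2, 0.467 adjusted over 7 pairs of probe sets). A probe set shared by Igf2r and its antisense RNA Airn, 1440979_at, stood at the lowest value on all arrays. In its RefSeq start window Igf2r holds 34 CG, a count that 7.73% of windows reach.

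Impact encodes an inhibitor of the stress kinase GCN2 (Eif2ak4) and is expressed from the paternal copy. Its 2 brighter probe sets differed in opposite directions, neither past the threshold. Impact 1446750_at had 9.36, 9.03, 9.20 and 9.07 in menin-deficient arrays, against 9.23, 9.66, 9.89 and 9.51 in control arrays. Only control replicate 1 fell within the menin-deficient range, and the difference was -0.41 (95% interval -0.76 to -0.06, limma adjusted p = 0.115), not past the threshold. It passed with arrays centred on the median tested gene (-0.53, limma adjusted p = 0.0474). Impact 1415911_at had 8.93, 8.67, 8.71 and 8.63 in menin-deficient arrays, against 8.57, 8.82, 7.81 and 8.64 in control arrays, with control replicate 3 lowest. Its difference was 0.28 (95% interval -0.23 to 0.79, limma adjusted p = 0.437), and in female mice alone -0.01. Without control replicate 3 it was 0.06. The gap of 1446750_at over 1415911_at averaged 0.43 ± 0.05 in menin-deficient and 1.12 ± 0.66 in control cells (SD, n = 4 each), a two-sided exact permutation p of 0.0286, the smallest that 70 labellings allow, and 0.2 adjusted over 7 pairs. Without control replicate 3 the gap differed by -0.36 between the groups, against -0.69 with it. The dim Impact probe set 1446751_s_at lay between 2.08 and 3.11.

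Peg3 encodes a large zinc finger protein expressed from the paternal copy and known as a marker of stem and progenitor cells in several tissues. On all 4 control arrays each of its 5 probe sets stood at the lowest value. In menin-deficient arrays 1433924_at had 2.11, 2.31, 4.68 and 3.48, and the other 4 probe sets stayed at the lowest value. The probe set entered the test only through the menin-deficient group, so the groups had to differ. The difference was 1.07 (95% interval -0.23 to 2.36, limma adjusted p = 0.244), not past the threshold, and it gives no estimate of fold because control arrays had no value above the lowest. The arrays with 4.68 and 3.48 came from the female menin-deficient mice and those with 2.11 and 2.31 from the males. Without menin-deficient replicate 3 the difference was 0.56 (limma adjusted p = 0.327). Its start window (chr7:6730370-6730669, minus strand, RefSeq GRCm38.p6) is shown because Peg3 left the lowest value in menin-deficient arrays alone. It holds 13 CG, in capitals, a count that 37.9% of windows reach.
Peg3 start: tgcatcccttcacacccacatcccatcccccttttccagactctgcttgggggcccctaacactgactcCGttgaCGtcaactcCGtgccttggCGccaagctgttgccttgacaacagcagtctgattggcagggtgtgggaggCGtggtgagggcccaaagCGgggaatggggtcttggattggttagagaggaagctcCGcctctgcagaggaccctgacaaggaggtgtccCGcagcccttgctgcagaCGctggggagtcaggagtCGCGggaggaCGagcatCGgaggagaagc

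Plagl1 encodes the zinc finger protein ZAC1, a regulator of other imprinted genes, and is expressed from the paternal copy. Plagl1 1426208_x_at had 2.51, 3.25, 2.26 and 2.42 in menin-deficient arrays, against 2.19, 2.67, 2.63 and 2.25 in control arrays, overlapping ranges near the lowest value (difference 0.18, limma adjusted p = 0.659). The sign of that difference turned without menin-deficient replicate 2 (-0.04). Plagl1 1438588_at reached 2.77 on control replicate 2 and stood at the lowest value elsewhere, and 1450533_a_at stood there on all arrays. Mest, a paternally expressed hydrolase-like gene of mesodermal tissues, passed the filter at a constant 2.18 on all 8 arrays, which is near the lowest value and shows no level that could be compared.

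Snrpn encodes SmN, a close relative of the spliceosomal protein SmB, and shares its transcript with the upstream reading frame Snurf. The only probe set assigned to Snrpn alone, 1432096_at, stood at the lowest value on all arrays. Another 6 probe sets are assigned to Snurf and Snrpn jointly and were left out of the counts. Among these, 1415895_at had 10.06, 10.38, 10.15 and 10.34 in menin-deficient arrays, against 10.43, 10.21, 10.25 and 10.01 in control arrays. By this probe set alone the pair was well expressed, with overlapping groups. The difference was 0.01 (95% interval -0.26 to 0.27, limma adjusted p = 0.999), a sign that turned under each rescaling. Of the other joint probe sets, 1415896_x_at lay between 2.79 and 3.00 and 1435716_x_at reached at most 2.22. The joint probe sets 1421063_s_at, 1441905_x_at and 1460075_x_at stood at the lowest value on all arrays. Among 10 tested Sm core and assembly genes, 0 passed in the fit over genes and 6 had an unadjusted p under 0.05 (limma). Of all 11885 genes tested, 4289 had an unadjusted p under 0.05. With arrays centred on the median tested gene, 3 of the 10 were called lower. Snrpa1 had the lowest p among the 10 (difference -0.32, limma adjusted p = 0.0739), followed by Snrpb, which encodes SmB itself (0.17, limma adjusted p = 0.0753). Without menin-deficient replicate 1, 3 of these genes passed (1 higher, 2 lower), and without control replicate 4, 1 did.

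Peg10, a retrotransposon-derived gene of the placenta, had 1 probe set, 1427550_at, at the lowest value on all arrays. Dlk1, a Notch-related surface protein of fetal and stromal cells, had 1442724_at and 1449939_s_at, which also stood at the lowest value on all arrays. Neither gene was detectable in either group. The dim probe sets do not show that a transcript is absent, only that these arrays gave no signal above the lowest value.

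**Figure D2:**
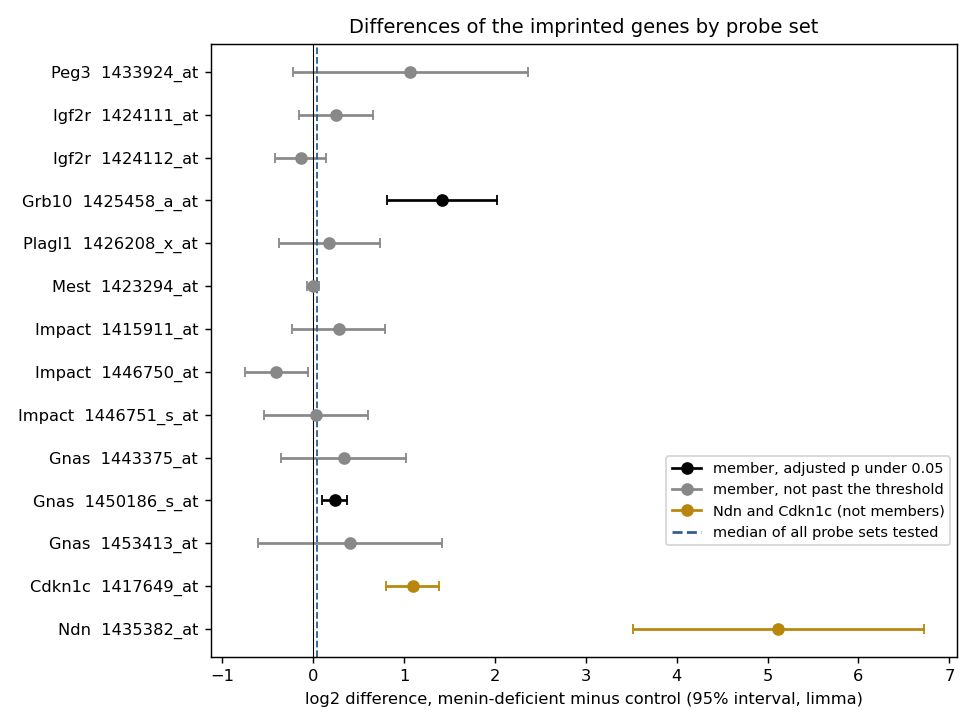
Log2 difference, menin-deficient minus control (horizontal axis), with its 95% interval from limma, for the 12 member probe sets that passed the filter and, below them, for Cdkn1c and Ndn 1435382_at. The dashed line marks the median of all tested probe sets, 0.04. Grb10 at 1.42 and Gnas 1450186_s_at at 0.24 are the members past the threshold, and Ndn 1435382_at lies at 5.12.

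The imprinted genes left outside the group, Ndn and Cdkn1c, were both higher in menin-deficient cells. Ndn 1435382_at averaged 9.86 ± 0.26 in menin-deficient and 4.74 ± 1.44 in control cells (log2, SD, n = 4 each), and Cdkn1c averaged 9.01 ± 0.24 in menin-deficient and 7.92 ± 0.11 in control cells. Their differences were 5.12 and 1.09 (limma adjusted p = 0.00690 and 0.0044). Whether they differ from those of the members was not tested.

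Counted per gene by the brightest tested probe set, 21.3% of 11885 genes were called, 16.2% higher and 5.17% lower, and the median difference was 0.11. With arrays centred on the median tested gene the split was 911 higher and 971 lower, against 1922 higher and 614 lower as deposited, and 1082 and 697 with arrays centred on their median, 1300 and 702 on the median tested probe set, and 1339 and 728 after quantile normalization. Grb10 and Gnas were the 2 members called of 7 tested (limma adjusted p = 0.0108 and 0.0293), and Impact 1446750_at missed the threshold (limma adjusted p = 0.0916). Over the 8 arrays, the genes whose values were most like those of Grb10 by Pearson correlation were Bcat1 (0.993), Pole3 (0.993) and Nol12 (0.989), and for Gnas they were Slc2a6 (0.982), Nsmce3 (0.98) and Rai1 (0.98). These coefficients share the same 8 arrays and the difference between groups.

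Other imprinted genes were taken as a list to set beside the members. Of 69 listed, 58 were on the array, 32 were tested, 7 rose, 2 fell and 23 did not pass, with a median difference of 0.19. The share called, 28.1%, stood beside 21.3% of all genes. Sfmbt2, a polycomb-related gene imprinted in extraembryonic tissue, rose most. It had 8.81 ± 0.19 in menin-deficient and 6.69 ± 0.27 in control cells (log2, SD, n = 4 each), a difference of 2.13 (SE 0.15, limma adjusted p = 0.000915), or 4.36-fold. Its other tested probe set was dim (2.50 in menin-deficient and 2.16 in control arrays).

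Qpct, which encodes glutaminyl cyclase, averaged 4.41 ± 0.14 in menin-deficient and 3.51 ± 0.08 in control cells, a dim signal with a difference of 0.91 (limma adjusted p = 0.00142). Control replicates 1, 2 and 3 shared the value 3.47, so the control SD and this p-value rest partly on a repeated value. H13, encoding signal peptide peptidase, rose by 0.49 on its brightest probe set (limma adjusted p = 0.00363). Its other probe sets differed by -0.09, -0.09 and -0.54, the last of them lower with a limma adjusted p of 0.0181 in the fit over probe sets, so H13 has no single direction. Cd81, a tetraspanin of the B-cell co-receptor, rose by 0.35 (limma adjusted p = 0.00527) and missed the threshold with arrays centred on the median tested gene (0.23, limma adjusted p = 0.0577).

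The domain around Ndn and Snrpn on chromosome 7 was looked at after its values were seen. Mkrn3, a zinc finger gene of that domain with paternal expression, averaged 6.41 ± 0.49 in menin-deficient and 5.04 ± 0.28 in control cells, a difference of 1.37 (SE 0.26, limma adjusted p = 0.0134). Peg12, another paternally expressed gene there, was dim, with 3.30 in menin-deficient and 2.89 in control arrays (limma adjusted p = 0.131). Ube3a, which encodes a ubiquitin ligase, differed by -0.06 (limma adjusted p = 0.795). Atp10a fell by 1.29 on 1447851_x_at, which by its suffix may cross-hybridise (limma adjusted p = 0.0198), while its other tested probe sets differed by 0.10, 0.01 and -0.14. Outside that domain, Commd1, the host gene of Zrsr1, also had probe sets of opposite sign: 1424121_at was lower by -0.57 and 1424122_s_at higher by 0.41 (limma adjusted p = 0.0163 and 0.0331 in the fit over probe sets).

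**Figure D3:**
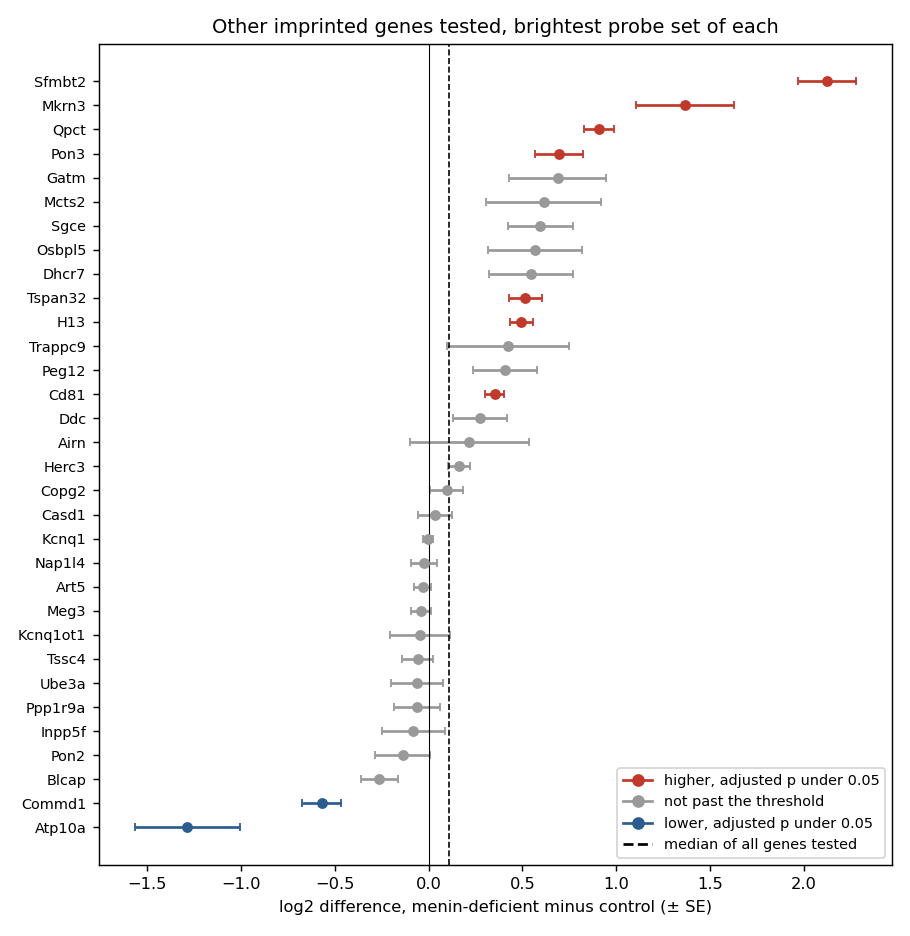
Log2 difference, menin-deficient minus control (horizontal axis, ± SE from limma), of the 32 other imprinted genes tested, each by its brightest probe set and ordered by difference. Red marks the 7 called higher, blue the 2 called lower and grey the 23 not past the threshold, with the dashed line at the median of all genes, 0.11. Sfmbt2 at 2.13 and Mkrn3 at 1.37 lie furthest to the right, and Atp10a at -1.29 furthest to the left.

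Neighbouring genes within 1 Mb of a member by RefSeq (GRCm38.p6) were looked at too, and those named here were chosen after their values were seen. None of the 5 tested genes around Grb10 passed, including Ikzf1, the Ikaros transcription factor of lymphocytes (difference -0.14, limma adjusted p = 0.186), and Ddc (0.27, limma adjusted p = 0.214). None of the 14 around Peg3 or the 11 around Igf2r passed either (limma). At an unadjusted p under 0.05 the counts were 0 around Grb10, 4 around Peg3 and 0 around Igf2r, beside 4289 of all 11885 genes. Over all members 84 neighbouring genes were tested, of which 12 rose and 0 fell (limma, 3 were lower at an unadjusted p under 0.05), a share of 14.3% against 21.3% of all genes. Near Impact 3 of 6 rose, among them Zfp521 by 1.70 (limma adjusted p = 0.00439), and near Mest 3 of 11 rose. Near Gnas 2 of 10 rose, Npepl1 and Prelid3b, each by 0.39 (limma adjusted p = 0.00964 and 0.0224). In the Peg10 domain Pon3 rose by 0.70 (limma adjusted p = 0.0121), while Sgce, which shares a control region with Peg10, differed by 0.60 and missed the threshold (limma adjusted p = 0.0505).

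A list of genes that keep imprints or otherwise act on DNA methylation or chromatin (imprint-keeping genes below) had 5 of 25 tested genes called. Of the called genes 4 were higher and 1 lower, and the median difference of the list was 0.04. The share called, 20%, was close to the 21.3% of all genes. Mbd3, a subunit of the NuRD complex, rose by 0.52 (limma adjusted p = 0.00399), and Arid4a, an RB-binding protein tied to imprint control in mice, fell by 0.48 on the log2 scale (limma adjusted p = 0.00365). Daxx, a histone H3.3 chaperone, rose by 0.28 and Dnmt3a, a de novo DNA methyltransferase, by 0.37, both lost with arrays centred on the median tested gene. The other 4 tested probe sets of Dnmt3a differed by -0.27 to 0.13. The count of called genes was 2 without menin-deficient replicate 2, menin-deficient replicate 4 or control replicate 4, was 3 without menin-deficient replicate 3 or control replicate 1 or 2, and was 8 without control replicate 3.

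The IGF and insulin receptor axis, on which Grb10 and Igf2r act, had 4 of 18 tested genes called, 2 higher and 2 lower, a share of 22.2% close to the 21.3% of all genes. Grb7, a relative of Grb10 in the same adaptor family, averaged 12.03 ± 0.43 in menin-deficient and 10.32 ± 0.30 in control cells (log2, SD, n = 4 each), a difference of 1.71 (SE 0.24, limma adjusted p = 0.00531). Insr, the insulin receptor, fell by 0.22 on the log2 scale (limma adjusted p = 0.0393) and Pik3r1, a regulatory subunit of PI3-kinase, fell by 0.22 on the log2 scale (limma adjusted p = 0.0436). Igf1r rose by 0.46 on its brightest probe set (limma adjusted p = 0.0436), and its other probe sets differed by -0.13 to 0.01. Grb7 was called whichever array was left out, but the count fell to 2 without menin-deficient replicate 2 or 3 or control replicate 3 or 4 and to 1 without menin-deficient replicate 4 or control replicate 1 or 2.

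A list of GCN2 pathway genes and related kinases had 4 of 12 tested genes higher and 0 lower (limma), at a median difference of 0.28. The share called was 33.3%, beside 21.3% of all genes called and 16.2% called higher. GCN2 itself (Eif2ak4), which Impact restrains, differed by -0.18 and did not pass (limma adjusted p = 0.295). Asns, asparagine synthetase and a target of this pathway, averaged 8.54 ± 0.33 in menin-deficient and 7.66 ± 0.34 in control cells (log2, SD, n = 4 each), a difference of 0.88 (limma adjusted p = 0.0308). Ppp1r15a, which restores translation after stress, rose by 0.62 and Eif2ak3, which encodes the separate kinase PERK, by 0.47 (limma adjusted p = 0.0207 and 0.0385). Atf4, the transcription factor of this response, rose by 0.21 on its brightest probe set (limma adjusted p = 0.0456) while its _x_at probe set differed by -1.17 (limma adjusted p = 0.0147 in the fit over probe sets), so Atf4 has no single direction. None of the 4 passed with arrays centred on the median tested gene, none passed without menin-deficient replicate 2, and 1 passed without control replicate 1 or 4. Without menin-deficient replicate 1, 3 or 4 the count was 2.

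Markers of other cells that the sort could hold were listed because imprinted genes are active in stem and stromal cells. Of 12 tested stem and progenitor markers 1 rose (Cd48, 0.44) and 1 fell (Meis1, -1.19), and 5 had an unadjusted p under 0.05 (limma). Their median difference was 0.31, against 0.11 for all 11885 genes, of which 21.3% were called and 4289 had an unadjusted p under 0.05. The summed level of these markers, as log2, was 13.5 to 13.8 in menin-deficient and 13.3 to 13.5 in control arrays. Of 13 stromal and endothelial markers 8 were tested and 0 passed (limma), 1 had an unadjusted p under 0.05, with Pecam1 lowest in p (0.45, limma adjusted p = 0.0890) and Col3a1, Lepr, Pdgfra and Cdh5 near the lowest value on all arrays. Of 5 tested T cell markers 3 rose (Thy1 2.65, Lat 1.76, Cd3g 0.78), with summed levels of 11.2 to 11.7 in menin-deficient and 9.09 to 9.79 in control arrays, while Cd3e, Cd3d and Cd4 stayed near the lowest value. Of 7 NK cell markers 3 rose, led by Ncr1 (1.41), with summed levels of 11.6 to 12.7 in menin-deficient and 10.9 to 11.5 in control arrays. Of 12 myeloid markers 2 rose (Ccr2 0.60, Lyz2 0.77), 3 had an unadjusted p under 0.05 (limma), and the median difference was 0.44. Of 6 erythroid and megakaryocytic markers 0 passed (1 at an unadjusted p under 0.05), and of 6 plasma cell markers 1 rose (Mzb1 0.34) and 2 fell (Sdc1 -1.16, Jchain -2.85). These markers moved in the same comparison as Grb10, and their part in its rise was not tested.

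Windows at RefSeq start sites were counted for 8 of the 10 members, 17 windows in all. They held 2 to 45 CG each, against a median of 7 over 32851 windows. Peg10 had no window, and Impact, on chromosome 18, was left out of the count. Of the 17 windows, 13 lay above that median and 6 in the upper 25% of all windows (20 CG or more). Some windows of Mest and of Gnas largely coincide, so these are counts of windows and not of separate genes. The windows of Plagl1 and Dlk1 held 26 and 9 CG and those of Mest 8, 17 and 17. The 4 windows of Snrpn held 2 to 7. The Dlk1, Mest and Plagl1 windows all lay above the median of 7, although these genes were at or near the lowest value on the arrays.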

How the data were processed

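RNA of sorted pro-B cells was hybridised to 1 expression array per mouse, 4 menin-deficient and 4 control. The authors deposited log2 values per probe set, a unit judged from their range (2.08 to 17.4). MAS5 and GCRMA are named in the submitters' processing notes without versions, and the sources used here do not say which one produced the table. The common lowest value compresses low signals. The number of arrays limits the precision.

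Of 45037 probe sets, besides 64 of the manufacturer's controls, 34945 have 1 symbol, 932 several and 9160 none in the platform annotation. Only those with 1 symbol were named. Groups came from the sample titles, and the study's design text gives separate mice. Entrez identifiers matched 11838 of 11885 tested genes to RefSeq (GRCm38.p6), used for neighbours and start windows.

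Probe sets above the 40th percentile of their array on at least 4 of 8 arrays were fitted in limma 3.58.1 by lmFit followed by eBayes (R 4.3.3), without covariates, adjusted by Benjamini-Hochberg, with a threshold of 0.05. Genes were fitted again by their brightest probe set. Adjusted p-values come from these fits. Gaps between probe sets of a gene were compared by two-sided exact permutation. Plots used matplotlib 3.10.9. Simulated data had 26790 probe sets, of which 26590 were unchanged. In them limma called 35.8% of 67 log2 changes of 0.5, 76.1% of 67 changes of 1 and 90.9% of 66 changes of 2, with 4 false calls. In the real fit 14.2% were called, a far larger share than was changed in the simulation, so these rates need not hold here.

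The members and gene lists were chosen with earlier results of these data known. Named genes are all members, Men1, Ndn, Cdkn1c, up to 4 called genes with the lowest p in each list (or 2 where none passed), and the 3 genes most like each called member. The text gives a selection. Alternatives were quantile normalization, centring, other filters, trended and robust eBayes, a block for replicate number, a sex covariate, the mean of probe sets, leaving out _x_at and _s_at probe sets, and leaving out each array. Female mice alone and centring on the median tested gene were chosen after seeing the data. Same-numbered arrays did not deviate together (correlations of -0.31 to 0.05). Such correlations cannot show whether the mice were paired by number.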

Additional observations from a re-analysis of the deposited data

Results flagged for a closer look

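An array lay far from the remaining 3 arrays of its group in 13 of 120 groups, over 60 named probe sets, and in 4 of the 24 groups of members. For normally distributed values chance gives about 1 in 20. That rate does not hold where the other 3 arrays share a repeated value. This was so for Mest, Men1 1443826_x_at, Qpct and Cxcl12, so no excess over chance is read from the counts. Among members, control replicate 4 was high for Igf2r 1424111_at (9.82, against 9.16 to 9.21 in the other controls) and low for Gnas 1443375_at (4.29, against 4.97 to 5.02). Control replicate 3 was high for Impact 1446751_s_at (3.11, against 2.08 to 2.17). Mest 1423294_at on control replicate 2 (2.18) differed from the other controls by less than the printed rounding.

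Outside the members, control replicate 2 was low for Ndn 1437853_x_at (2.08) and high for Epor (6.80). Control replicate 3 stood apart for Men1 1443826_x_at (5.93) and Igll1 (15.4), control replicate 4 for Qpct (3.62) and control replicate 1 for Cxcl12 (2.08). Menin-deficient replicate 3 was low for Sfmbt2 (8.53, against 8.88 to 8.93), Mbd3 (12.6) and Jchain (5.25).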

How the results depend on the processing

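The Grb10 difference kept its direction under all 18 alternatives (1.18 to 1.60) and its call under 15. With the replicate number as a block, Grb10 had a limma adjusted p of 0.0795, and the counts were 1083 probe sets (3808 without the block), 1328 genes (2536), 0 members, 3 imprint-keeping genes, 2 GCN2 pathway genes and 11 markers. Same-numbered arrays correlated at -0.31 to 0.05 and none correlated best with its own number. That cannot show whether the mice were paired, and the titles give only the number. Members called numbered 1, by probe set and by gene, under quantile normalization, centring on the array median or on the median tested probe set, and the 60th percentile filter. They numbered 1 by probe set without a filter, and 1 by gene with the mean of probe sets or without _x_at and _s_at probe sets. Without a filter 1935 probe sets and 1673 genes were called. Leaving out 1 array at a time gave 1796 to 3375 probe sets, 1413 to 2269 genes, 0 to 2 member probe sets, 1 to 3 member genes, 2 to 8 imprint-keeping, 1 to 4 IGF axis, 0 to 3 Sm core, 0 to 3 GCN2 pathway and 9 to 15 marker genes. Probe sets called fell by over 1.5 times without menin-deficient replicate 2 (1796) or 4 (2424) or control replicate 1 (1990), and genes called did so without menin-deficient replicate 2 (1413) or control replicate 1 (1622). Markers called fell to 9 without menin-deficient replicate 2, 10 without menin-deficient replicate 4 and 11 without control replicate 4, against 17 with all arrays. Centring on the median tested probe set left 2 imprint-keeping and 2 GCN2 pathway genes. Centring on the median tested gene gave 3 imprint-keeping, 3 Sm core, 0 GCN2 pathway and 11 marker genes. Female mice alone (2 menin-deficient, 3 control) gave 389 probe sets, 639 genes, 0 members, 4 other imprinted, 1 imprint-keeping, 1 IGF axis, 0 GCN2 pathway and 7 marker genes.

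Some differences turned sign, and of the turned values only that of Atf4 was past the threshold. In female mice alone Igf2r 1424112_at was 0.054, Plagl1 1426208_x_at -0.031 and Impact 1415911_at -0.0060. Under quantile normalization Mest was -0.0022 and Snurf/Snrpn (Snrpn 1415895_at) -0.046. Centred on the array median, Mest was -0.071, Impact 1446751_s_at -0.039 and Snrpn -0.066. Centred on the median tested probe set they were -0.058, -0.026 and -0.052, and centred on the median tested gene -0.125, -0.093 and -0.12. With sex as a covariate Impact 1446751_s_at was -0.091. Leaving out 1 array gave -0.038 to 0.294 for Plagl1, -5.5e-05 to 0.00026 for Mest, -0.061 to 0.281 for Impact 1446751_s_at and -0.067 to 0.075 for Snrpn 1415895_at. By the mean of probe sets H13 was -0.056, Pik3r1 0.016 and Atf4 -0.478 (limma adjusted p = 0.0296), and without _x_at and _s_at probe sets Igll1 was -0.12. The causes were not tested. Signals at the common lowest value limit what can be said of Peg10, Dlk1, Snrpn alone, Mest and Plagl1.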
